A study of Homo sapiens with 2 samples.

Results

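The nuclear-encoded CDS peaks are the ac4C peaks that the deposited acRIP-seq table of A549 cells assigns to a coding sequence and places outside the mitochondrial chromosome. A total of 256 of 647 listed peaks met this rule, on 205 gene names and 206 Ensembl gene identifiers. In acRIP-seq, fragments of RNA that carry N4-acetylcytidine (ac4C) are captured with an antibody and sequenced, and a peak is a stretch of transcript with more reads after the capture than in the input. A549 is a human lung adenocarcinoma cell line. The series holds 1 library of wild-type A549 cells (WT, labelled Control) and 1 library of A549 cells in which NAT10 was deleted by CRISPR/Cas9 (NAT10-KO), taken from a single homozygous clone. No other treatment or time point is given for either library. Total RNA was the starting material of both. The table joins the libraries in 1 list, with 1 fold enrichment over input for each peak, so no level is given for WT or NAT10-KO alone and NAT10 itself was not analysed here. Columns of the authors' own comparison between the conditions were not used, and no effect of the knockout is described. Enrichment values therefore cannot be told apart by condition, and with 1 library each no replicate error exists. Intervals below cover counting over the listed peaks only.

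ac4C is made on cytidine by NAT10, an acetyltransferase that also acts on 18S ribosomal RNA and, with partner proteins, on transfer RNA. Within messenger RNA the coding sequence is read by the ribosome in triplets, and acetylated cytidines there have been linked to translation and to the stability of the message. Coding sequence is usually spread over many short exons, whereas the 3'UTR mostly lies in the last exon, so the position of a peak bears on how it looks on the genome.

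DEK, which encodes a chromatin-bound DNA-folding protein, is the gene with a CDS peak that the study carried on to reporter assays, and its reporter fragments are shown here because they differ in the repeat that the study looked for. The repeat is a run of triplets that each start with C. Capitals mark every base that the mutant version of the fragment replaces, and both fragments are read 5′ to 3′ as designed.
DEK-ac4C site: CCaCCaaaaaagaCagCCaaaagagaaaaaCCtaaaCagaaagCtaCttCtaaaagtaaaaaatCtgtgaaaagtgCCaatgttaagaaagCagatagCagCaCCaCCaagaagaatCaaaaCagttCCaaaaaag
DEK-non ac4C site: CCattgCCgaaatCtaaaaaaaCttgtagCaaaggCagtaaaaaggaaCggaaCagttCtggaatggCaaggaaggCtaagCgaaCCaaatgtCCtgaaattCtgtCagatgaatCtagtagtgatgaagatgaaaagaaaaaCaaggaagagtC
The first fragment is 136 bases long and the second 155. The mutants replace 27 and 23 bases, each of them a C turned into G, and hold 0 C. The longest run of C-led triplets on the printed strand was 4 in the first fragment and 1 in the second. A run of 4 was also present in 49.97% of the 27305 RefSeq promoter windows (GRCh38.p14) when their first 136 bases were read on the strand of the gene. The windows run from 250 bases before the gene start to 50 after it, so these bases lie upstream of the gene. This share is therefore not a rate for messenger RNA or coding sequence, which was not measured. A was the most frequent base of the first fragment, at 52.2%. The listed CDS peak of DEK lies on the minus strand at chr6:18237511-18255768, where 4 blocks cover 329 bases. Its fold enrichment was 4.51, with an adjusted enrichment p of 6.31e-34 in the authors' deposited table. Where the fragments lie against these blocks was not determined, since the genomic sequence of these blocks was not used here.

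A pair of protein-coding genes had a CDS peak that reached into the RefSeq promoter window, and the bases where the peak begins are shown because they place it at the start of the transcript. In the CD68 sequence, capitals mark the bases from the annotated gene start onward, and the NUFIP2 sequence lies wholly inside the gene.
CD68, chr17:7579617-7579646, plus strand: gagcagggttgagcaactggtGCAGACAGC
NUFIP2, chr17:29294099-29294118, minus strand: ctcagatcctgacggtgcag
CD68 encodes a lysosomal membrane glycoprotein that is widely used as a macrophage marker. Its peak began 21 bases before the annotated start, covered 570 bases in 2 blocks and had a fold enrichment of 15.0. The peak of AC016876.2, a processed transcript on the same strand and the only listed CDS peak of a gene that is not protein-coding, shared all 570 of these bases and had a fold enrichment of 14.9, so the reads of both cannot be told apart. NUFIP2 encodes an RNA-binding partner of FMRP. Its peak began 30 bases after the first base of the gene, reached chr17:29287572-29294118 with 2 blocks and had a fold enrichment of 5.75.

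Most CDS peaks were modestly enriched over input. All 647 listed peaks had an enrichment p under 0.05 before adjustment. The medians, shares and correlations below therefore hold only among peaks with such a p. Fold enrichment ranged from 1.13 at PABPC1 to 135 at MYH11, with a median of 2.01 (95% order-statistic interval 1.87 to 2.22, n = 256 peaks). A total of 126 peaks lay under 2-fold, 98 from 2-fold to under 5-fold, 13 from 5-fold to under 10-fold and 19 at 10-fold or more. The adjusted p of the enrichment was under 0.05 at 216 CDS peaks (84.4%, 95% Wilson interval 79.4% to 88.3%), against 75.7% of all listed peaks. Both this p and at least 2-fold enrichment were met by 116 CDS peaks (45.3%, interval 39.3% to 51.4%), against 43.7% of all listed peaks, which is within the interval. Called here means past the stated threshold against input.

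In the 214 nuclear 3'UTR peaks the median was 2.42 (interval 2.20 to 2.64). The difference of the medians, CDS minus 3'UTR, was -0.405, and the order changed with the p required. Its bounds of -0.77 to 0.02 join opposite ends of the separate intervals of the medians. They are wider than a 95% interval of the difference, so their including 0 does not decide whether the medians differ. Among peaks with an adjusted p under 0.05 the medians were 2.09 for the CDS and 2.29 for the 3'UTR, and under 1e-05 they were 2.36 and 2.32. The share of peaks with an adjusted p under 0.05 was 65.9% in the 3'UTR, 18.5 percentage points below the CDS (95% Newcombe interval 10.7 to 26.2). For the joint threshold of 2-fold and adjusted p the difference was 3.72 points (interval -5.26 to 12.6), which includes 0. No test across libraries could be made on these shares, since each condition has 1 library.

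**Figure D1:**
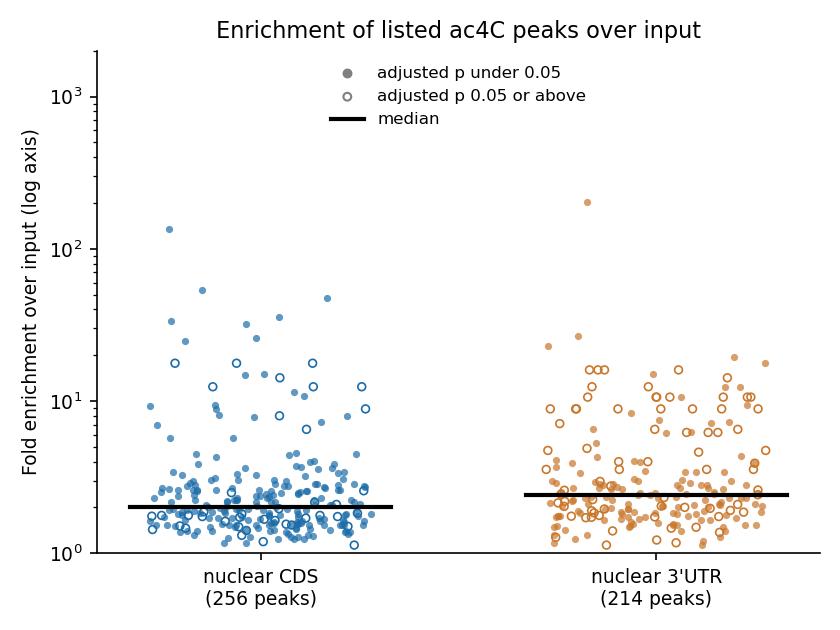
Fold enrichment over input (log axis) of each nuclear CDS and nuclear 3'UTR peak, filled where the adjusted enrichment p was under 0.05 and open otherwise, with the median as a bar. Most points of both regions lie near 2-fold, and the open points at high fold are more numerous in the 3'UTR.

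The highest values were of different kinds. KRT19, a keratin of simple epithelia, had peaks of 53.2-fold and 47.7-fold, with log10 enrichment p of -220 and -1140. CD68 (15.0-fold), SLC30A1 (10.7-fold), which encodes a zinc exporter, ARHGAP21 (9.37-fold), a GTPase-activating protein, and C11orf24 (8.79-fold) had a log10 p between -99.1 (SLC30A1) and -329 (CD68). These peaks were high in fold and in support alike. FOLR1, the folate receptor alpha, had 24.8-fold with an adjusted p of 0.00148. In contrast, ALG13, DPCR1 and MYH11 each had a peak with exactly 17.7-fold enrichment and a log10 p of -3.64, and the adjusted p of all 3 was 0.0589. CDADC1, MYL9 and PIGR each had 12.4-fold enrichment with a log10 p of -2.42. This last pair of values was shared by 9 peaks of 9 genes across the whole list.

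Of the 32 CDS peaks at 5-fold or more, 10 had an adjusted p of 0.05 or above, and all 10 carried a fold and p that recurred exactly at a peak of another gene. In the 3'UTR, 28 of 46 peaks at 5-fold or more had such a p, and 24 of these recurred. At the other end, PABPC1 and RAB1A, a small GTPase of early vesicle transport, had 1.13-fold and 1.19-fold without an adjusted p under 0.05, whereas RPL23A and ALDH1A1, both at 1.16-fold, had one. Read counts were not used here, so the number of reads behind the recurring values is not known. At 10-fold or more, 12 of 19 CDS peaks and 9 of 23 3'UTR peaks had an adjusted p under 0.05, and the share without it differed by -24.0 points (CDS minus 3'UTR, interval -48.5 to 5.85).

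CDS peaks were mostly split over several exons. A block is 1 contiguous piece of a peak on the genome, and 167 of 256 CDS peaks (65.2%, Wilson interval 59.2% to 70.8%) had more than 1 block. In the 3'UTR this was so for 25 of 214 peaks (11.7%, interval 8.04% to 16.7%), a difference of 53.6 points (Newcombe interval 45.7 to 60.2). Each peak carries 1 region label for all its blocks. Among the split 3'UTR peaks, that of ITGB1 had 15 blocks over 31243 bases and 1 of ALDH1A1 had 5 over 15991. How much of such peaks lies outside the 3'UTR was not determined. By block number, 89 CDS peaks had 1, 103 had 2, 39 had 3, 16 had 4, 7 had 5 and 2 had 6. The peaks with 6 blocks were at HNRNPA3, an RNA-binding protein of the hnRNP family, with 599 covered bases and 7.90-fold enrichment, and at DES. Peaks with 5 blocks included RAD50, an ATPase of the MRE11 DNA repair complex, KIF5B, a kinesin motor, and HNRNPA1. Inner blocks of peaks with 3 or more blocks had a median of 118 bases (range 28 to 819, n = 100 blocks). A block under 10 bases occurred in 16 of the 167 split CDS peaks and in 0 of the 25 split 3'UTR peaks.

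The stretch of genome from the first to the last base of a peak followed this splitting. Its median was 812 bases for CDS peaks (interval 620 to 1058) and 180 for 3'UTR peaks (interval 151 to 181). It exceeded 1000 bases at 118 CDS peaks and 23 3'UTR peaks. The longest were at MYH11 (70292 bases), ADGRG6 (64935 bases), an adhesion G protein-coupled receptor, BAIAP2L1 (34923 bases), DEK (18258 bases) and RAB10 (18136 bases), a small GTPase of vesicle transport. These peaks covered only 181 to 631 bases of transcript. The distance therefore consists almost wholly of the gaps between blocks.

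The covered length, summed over blocks, differed less between the regions. Its median was 211 bases in the CDS (interval 210 to 239, range 119 to 1077) and 180 in the 3'UTR (interval 151 to 181). The longest CDS peaks were at EEF1A1 (1077 bases), which delivers aminoacyl-tRNA to the ribosome, DES (951 bases), HSP90AA1 (931 bases), a cytosolic chaperone, KRT19 (929 bases), a second HSP90AA1 peak (811 bases) and ATRX (810 bases), a chromatin remodeller. Lengths fell on a grid: 242 of 256 CDS peaks (94.5%) and 204 of 214 3'UTR peaks were within 1 base of a multiple of 30. A length therefore resolves no finer than this step.

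Longer CDS peaks had higher fold enrichment. The 45 CDS peaks of up to 150 bases had a median of 1.65-fold, the 144 of over 150 to 300 bases 1.93-fold, and the 67 over 300 bases 2.81-fold. Over the 256 CDS peaks Spearman's correlation between fold enrichment and covered length was 0.498, and over the 216 with an adjusted p under 0.05 it was 0.583. In the 3'UTR the correlation was -0.00689 over 214 peaks and 0.198 over the 141 with such a p. These are descriptions across peaks of the same libraries, which share depth and are not replicates. All 67 CDS peaks and all 29 3'UTR peaks over 300 bases had an adjusted p under 0.05, against 55.6% and 40.5% of those up to 150 bases.

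The CDS peaks were then read by gene group. Among markers of lung epithelium and of A549 cells, 5 of 16 genes had a CDS peak. Next to KRT19 these were NQO1 at 2.80-fold, GCLM at 2.06-fold, TXNRD1 at 1.24-fold and 1.41-fold, and ALDH1A1 at 1.16-fold and 1.39-fold. The last 4 encode enzymes of redox and aldehyde metabolism, and all 9 peaks of the list had an adjusted p under 0.05, as did 84.4% of all CDS peaks.

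Markers of other tissues also held CDS peaks. Of 16 smooth muscle genes, 5 had 10 CDS peaks, with a median of 21.9-fold and a range from 6.51 to 135, far above the median of 2.01 over all CDS peaks. MYH11, the smooth muscle myosin heavy chain, held 6 of them, at 135, 33.7, 31.9, 26.0, 17.7 and 6.94-fold. The 6.94-fold peak shared 124 of its 451 bases with a 3'UTR peak of NDE1 on the other strand (7.27-fold). Whether all its reads belong to MYH11 is therefore not known. DES, which encodes the muscle intermediate filament desmin, had 35.5-fold with an adjusted p of 5.01e-06, and ACTG2, an enteric smooth muscle actin, had 11.5-fold with 0.000115. MYL9 at 12.4-fold and SYNPO2 at 6.51-fold had an adjusted p of 1 and 0.283. In all, 7 of the 10 peaks had an adjusted p under 0.05, against 75.7% of all listed peaks. The others, MYH11 at 17.7-fold, MYL9 and SYNPO2, carried a fold and p that recurred exactly at peaks of other genes. The list was chosen with earlier results of these data known, so its high median is no independent finding. Of 13 connective tissue genes 0 had a CDS peak, and 1 had a peak in any nuclear region, in the 3'UTR at 1.13-fold. Of 7 blood and immune genes only CD68 had one. Whether RNA of other cells had a part in these peaks was not tested, and in bulk RNA fewer cells of a type and less RNA per cell cannot be told apart. Without the smooth muscle and connective tissue genes the median of the CDS peaks was 1.96-fold.

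Genes of chromatin and the nucleolus were represented by 10 of 32 members with 13 CDS peaks, and 6 of these peaks (46.2%) were called at 2-fold, near the 43.7% of all listed peaks. DEK at 4.51-fold and ATRX at 4.50-fold were highest, and NCL, the nucleolar protein nucleolin, had 2.83-fold and 1.76-fold. NPM1, another nucleolar protein, had 1.29-fold. TOP2A, the topoisomerase that untangles replicated chromosomes, had 3 peaks at 2.06, 1.93 and 1.43-fold. Of 21 genes of cohesin, condensin and DNA repair, 4 had CDS peaks. SMC4, a condensin subunit, had 4 peaks from 1.53-fold to 2.69-fold, and RAD50 had 2.56-fold and 2.29-fold. The first RAD50 peak shared 180 bases with the listed peak of AC116366.3 on the same strand (2.59-fold), so its reads cannot be assigned to 1 gene.

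On a list of 20 genes of mitosis and the centrosome, which also holds KIF5B and TPR, 8 had 16 CDS peaks, and 12 of the peaks were split. CENPE, a kinetochore motor, had 3 peaks at 3.27, 3.05 and 2.78-fold, which differed little. MKI67, the Ki-67 proliferation antigen, had 2.17, 1.91 and 1.27-fold. KIF5B had 2.34, 1.87 and 1.46-fold, and TPR, a nuclear pore protein, had 2.59-fold and 2.25-fold. Of 12 golgins and vesicle tethers only GOLGA4 had a CDS peak, but it had 5, at 3.85, 3.55, 2.83, 2.17 and 1.81-fold, and 4 of them lay unsplit within chr3:37324402-37326951.

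Genes of protein synthesis and folding came next. Of 29 translation factors, 7 had 11 CDS peaks with a median of 1.53-fold, all of them split over exons, and 4 peaks (36.4%) were called at 2-fold against 43.7% of all listed peaks. EEF1A1 at 2.97-fold and 2.81-fold were highest, EIF5B, which joins ribosomal subunits, came next, and PABPC1, the poly(A)-binding protein, had 1.52-fold and 1.13-fold. Genes named as cytosolic ribosomal proteins, RPS27L and RPL22L1 among them, numbered 13 with 14 CDS peaks and a median of 1.95-fold, within the interval of all CDS peaks, and 6 of the peaks (42.9%) were called at 2-fold. RPS20 at 4.04-fold and RPS27L at 3.99-fold led, and RPL23A at 1.16-fold was lowest. The same genes held 1 listed 3'UTR peak. Of 27 chaperones, 9 had 13 CDS peaks with a median of 1.76-fold, led by HSP90AA1 at 3.24-fold and HSP90AB1 at 2.64-fold. At 2-fold 5 of these peaks (38.5%) were called, against 43.7% of all listed peaks. EEF1A1, HNRNPA1, the ribosomal protein genes and several chaperones have processed pseudogenes, and how reads shared with such copies were counted is not given in the sources used here.

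Of 37 splicing and RNA-binding genes, 6 had 7 CDS peaks with a median of 1.70-fold, and 1 of the 7 (14.3%, against 43.7% of all listed peaks), at HNRNPA1 with 2.83-fold, was called at 2-fold. HNRNPA3, described above, is not on this list, so the share depends on which genes were listed. Of 33 genes of the cytoskeleton and adhesion, 4 had CDS peaks and 8 had 3'UTR peaks. The CDS peaks were at TPT1 (3.84-fold), a growth-related calcium-binding protein, ROCK2 (2.56-fold and 2.41-fold), a kinase that acts on actomyosin, LAMB1 (1.66-fold), a laminin chain, and CD44 (1.25-fold), the hyaluronan receptor. The deposited adjusted enrichment p of the CD44 peak was 0.0102. Adhesion genes outside this list also had CDS peaks, among them DAG1 (4.53-fold and 1.73-fold), NECTIN3 (4.42-fold) and TJP1 (1.68-fold). The counts and the order within this group therefore depend on which genes were listed. Among C2H2 zinc finger genes ZNF462 had 8.06-fold and ZNF146 1.65-fold, and no histone gene had a CDS peak.

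Most genes had a single CDS peak: 169 had 1, 27 had 2 and 9 had 3 or more. The last 9 were MYH11, GOLGA4, SMC4, KRT19, CENPE, HSP90AA1, KIF5B, MKI67 and TOP2A. Across the 36 gene names with several peaks the highest was a median of 1.29 times the lowest (range 1.01 to 19.8). How this compares with peaks of different genes was not tested. The ratio of 19.8 was that of KRT19, where the third peak had 2.69-fold. MYH11 spread almost as widely, with the peak that overlaps NDE1 as its lowest. MATR3, a nuclear matrix protein, is listed under 2 gene identifiers whose peaks share 238 of 241 bases, at 1.98-fold and 1.95-fold, so it counts among the 36 although both peaks are nearly the same stretch. In all, 13 of the 256 CDS peaks overlapped a listed peak of another identifier, CDR1 (3.01-fold) with an antisense transcript among them.

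Only 30 gene names had both a CDS and a 3'UTR peak, which is 14.6% of those with a CDS peak and 15.9% of those with a 3'UTR peak. Taking the highest peak of each region, the CDS was higher in 14 genes, the 3'UTR in 15 and both were equal in HSPA5. The median log2 ratio of CDS to 3'UTR was -0.02 (interval -0.27 to 0.17), and 20 genes lay within 2-fold. The CDS was highest over the 3'UTR in MYH11 (135 against 23.1), NAP1L1, a histone chaperone (9.23 against 1.61), and DES (35.5 against 16.0). The 3'UTR was highest over the CDS in UACA (10.6 against 1.67), and it was also higher in NPM1 (4.01 against 1.29). Some of these 3'UTR peaks are split, that of NPM1 into 2 blocks over 3202 bases. How much of them lies outside the 3'UTR was not determined. The adjusted p of the 3'UTR peak was 1 in UACA and above 0.05 in DES, where a second 3'UTR peak of 15.1-fold had an adjusted p of 2.63e-06. In DEK the CDS peak of 4.51-fold stood against 3.41-fold in the 3'UTR.

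The peaks came from 22 chromosomes. Chromosome 2 held 32 of the 256 CDS peaks (12.5%, Wilson interval 8.995% to 17.1%), against 6.26% of RefSeq protein-coding genes, and it also held 28 of the 214 3'UTR peaks (13.1%, interval 9.21% to 18.3%). Chromosomes 10 (20 peaks, 7.81%) and 5 (19 peaks, 7.42%) also had intervals above their gene shares of 3.66% and 4.51%, and they held 7 (3.27%) and 9 (4.21%) of the 3'UTR peaks. Chromosome 19, which carries 7.24% of protein-coding genes, held 2 CDS peaks (0.781%, interval 0.214% to 2.80%), at UBA2, a subunit of the SUMO-activating enzyme, and ZNF146. It held 3 of the 214 3'UTR peaks (1.40%). Chromosome 22 held 0 of 256, which allows a share of up to 1.48% by the Wilson interval, against 2.25% of genes, and chromosome X held 4 (1.56%, interval 0.609% to 3.95%) against 4.23%. For the other 18 of 24 chromosomes the interval included the share of genes. Which of these genes A549 cells express was not used in the comparison, and several peaks can share a gene.

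Genes with a CDS peak were longer on the genome than protein-coding genes at large. Their median length was 39421 bases (interval 29372 to 51337, 200 of 206 identifiers matched), against 24115 bases for 20037 RefSeq protein-coding genes and 40736 bases for genes with a 3'UTR peak. Along the gene, from its start at 0% to its end at 100%, the midpoint of CDS peaks had a median of 67.1% (interval 62.3% to 70.9%, n = 250 peaks). With the gene divided into 4 equal stretches from start to end, these held 28, 50, 72 and 100 of the peaks. For 3'UTR peaks the median was 95.5%. These positions are on the genome and include introns, so they do not give the place within the spliced message.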

How the data were processed

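The acRIP-seq series holds 1 WT and 1 NAT10-KO library of A549 cells, grouped by their titles. Per the labels, the submitters' processing notes name STAR 2.7.10a and hg38. The authors captured ac4C RNA, removed rRNA, aligned the reads and annotated peaks. The peak caller is not given in the sources used here, nor whether peaks were called on both libraries together. The authors deposited 1 table of 647 peaks with the fold enrichment over input as a ratio, its p-value, and log10 p and log10 adjusted p as a score, and other deposited columns give the blocks of each peak. The deposited score of log10 p equalled log10 of the p-value within 0.02 wherever the latter was above 0. A total of 31 p-values are written as 0, and an adjusted log10 of 0 was read as an adjusted p of 1. The 3 columns of the authors' comparison between conditions (a log2 fold change, log10 p and log10 adjusted p) were not used. No column holds a single library, so depth is unknown.

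Peaks with region CDS outside the mitochondrial chromosome were kept. Starts were read as counted from 0 and are printed counted from 1. Covered length is the sum of the block sizes, and the genomic stretch was taken from the outer bounds. A peak was called with an adjusted p under 0.05, with or without at least 2-fold enrichment. Shares have 95% Wilson intervals, their differences Newcombe intervals and medians order-statistic intervals, which cover counting only, since peaks are not replicates. The bounds of the difference of medians join opposite ends of the separate intervals, and are wider than a 95% interval. No p-value was computed. Gene names, positions and promoter windows came from RefSeq (GRCh38.p14), and DEK fragments from the study's supplement. Named genes are the highest and lowest by fold, block number and length, those with 3 or more CDS peaks or the largest difference between regions, up to 6 a gene list, those not protein-coding, and DEK. RAD50, CDR1, UBA2 and a few others were added after their values were seen. A few genes that the rule names are not reported here. The members and lists were chosen with earlier results of these data known. Scripts were tested on simulated data. Tables were handled with pandas 2.3.3, intervals with scipy 1.17.1 and numpy 2.4.6, and plots with matplotlib 3.10.9, under Python 3.11.15.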

Additional observations from a re-analysis of the deposited data

How the results depend on the processing

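Of 26 other settings, 21 left the value within its interval and 5 did not. Several of these settings kept 255, 246 or 243 of the 256 CDS peaks. A value within its interval says little there, since few peaks were changed. The share of CDS peaks past both thresholds was 71.9% when 1.5-fold was required, 10.9% when 4-fold was required and 38.3% with an adjusted p under 1e-05, by construction of the thresholds. With that p required of every peak, 155 CDS peaks had a median of 2.36-fold and a median covered length of 268 bases. Of 16 settings added after seeing the data, which include the same filters, 14 left the value within its interval. With the stricter p the difference of medians between CDS and 3'UTR turned from -0.405 to 0.045, and the difference in split peaks was 44.6 points in place of 53.6. The cause was not tested. The lysine and glutamate content of the proteins was not run, since it needs protein sequences. No paired analysis was possible because the labels number no replicates and WT and NAT10-KO have 1 library apiece. The unknown depth limits every single peak, whose fold enrichment carries no error.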
